A study of Mus musculus with 21 samples.

Results

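WT MPP2 was compared with WT MPP3 across all genes expressed in bulk RNA-seq libraries of sorted mouse bone marrow cells. The comparison used 8 of the 21 libraries of the series, 4 of WT MPP2 and 4 of WT MPP3, chosen by the population and genotype in the sample labels. The mice were C57BL/6 animals of 12 weeks with wild-type Phf6, a chromatin-associated protein that is mutated in human leukaemia. Marrow cells were stained for lineage antigens, Sca-1, cKit, CD150 and CD48, and 100 to 200 cells of each population were sorted from 4 pairs of wild-type and knockout mice. The KO libraries (4 KO MPP2 and 4 KO MPP3) came from Phf6 knockout mice of the same strain and age and are used below as other animals in which the same populations were sorted. The 2 WT LT-HSC libraries, of long-term haematopoietic stem cells, are used for levels, and the 3 KO LT-HSC libraries only enter the shared fit. The labels give neither the gates of the sort nor the knockout design, and they name no stain for Flt3. Libraries carry the numbers 1 to 4 within a group, and the labels do not state that MPP2 and MPP3 libraries of the same number came from 1 mouse. The main tests therefore take the libraries as unpaired, and p-values measure the spread between these libraries. A fit with the number as a replicate block is given as an alternative.

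Multipotent progenitors (MPP) lie between stem cells and the lineage-restricted progenitors of the marrow and carry Sca-1 and Kit without lineage antigens. MPP2 cells are usually defined by CD150 and CD48 together and are known for megakaryocyte and erythroid output, while MPP3 cells carry CD48 without CD150 and are known for granulocyte and monocyte output. A CD150-negative, CD48-positive gate without Flt3 also holds the Flt3-high progenitors with lymphoid potential. GATA1 is the transcription factor that drives both megakaryocyte and erythroid programmes, and PU.1, encoded by Spi1, opposes it in the choice of the myeloid lineages. In sorted bulk libraries, fewer cells of a type and less RNA per cell cannot be told apart.

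The 8 libraries held 22812185 to 29300053 counts, and 20260 to 28501 genes had at least 1 count. Levels are given in CPM, counts scaled to a common library size with TMM factors, and 3 counts corresponded to 0.0985 to 0.126 CPM. Slamf1, which encodes the sort antigen CD150, had 33.8, 9.18, 73.0 and 80.1 CPM in WT MPP2 1 to 4, against 1.63, 0.0700, 0.0352 and 1.99 CPM in WT MPP3 1 to 4. The populations did not overlap, with p = 0.0286 by an exact two-sided permutation test of unpaired libraries, the smallest that 4 against 4 allows. Were the libraries paired by number, the smallest p of a permutation test would be 0.125. The Slamf1 difference is a check of the labels rather than a finding. Cd48, Kit, Ly6a (Sca-1) and Phf6 had exact permutation p-values of 0.171, 0.943, 0.629 and 0.8. Ly6a had 264, 166, 17.3 and 31.3 CPM in WT MPP2, against 257, 215, 48.2 and 90.0 CPM in WT MPP3, so that it was low in the libraries numbered 3 and 4 of both populations. The libraries numbered 2 were the only ones of the 8 with Y-linked Ddx3y above 1 CPM, at 131 CPM in WT MPP2 2 and 177 CPM in WT MPP3 2.

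Among the 8 libraries, WT MPP2 1 and WT MPP2 2 stood apart in immunoglobulin RNA. Immunoglobulin genes took 4.08% and 3.52% of their counts, against at most 0.00561% in WT MPP2 3 and 4 and 0.0752% to 0.0865% in the 4 WT MPP3 libraries. Ighm, the heavy chain of IgM, had 12162, 10346, 49.2 and 0 CPM in WT MPP2 1 to 4, against 545, 555, 719 and 623 CPM in WT MPP3. The joining chain gene Jchain had 10024 and 2788 CPM in WT MPP2 1 and 2 and 0 in WT MPP2 3 and 4, and at most 1.96 CPM in WT MPP3. The 14 plasma cell markers together took 1.01%, 0.355%, 0.0415% and 0.0466% of counts in WT MPP2 1 to 4, and 0.0458% to 0.0584% in WT MPP3. For this reason the comparison is also given within the libraries numbered 1 and 2 and within those numbered 3 and 4, and the part of immunoglobulin-rich RNA in the results was not tested. Leaving out all immunoglobulin genes gave 205 higher and 47 lower calls. Some lists below are also given without WT MPP2 1 and 2. That omission sets WT MPP2 3 and 4 against all 4 WT MPP3 libraries, so that numbers 1 and 2 remain only in WT MPP3. Over all 21100 genes it gave 366 higher and 389 lower calls.

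In all, 253 of 21100 tested genes (1.2%) passed an adjusted p of 0.05 in edgeR's quasi-likelihood test, 207 higher in MPP2 (0.981%) and 46 lower (0.218%). Without adjustment, edgeR gave 2858 of the 21100 genes a p under 0.05 in either direction, the background for list counts at that level. Megakaryocyte and platelet genes, early erythroid genes, mitosis genes and genes of oxidative phosphorylation were the lists with the most calls, and all of their calls were higher in MPP2. The median log2 fold change was 1.46 over the genes called higher and -1.21 over those called lower, and -0.02 over all genes tested. The 4 MPP2 and 4 MPP3 libraries did not overlap in 2151 genes (10.2%), and 201 of the genes called higher and 45 of those called lower were among them. The number of calls depended on single libraries: it was lowest without WT MPP3 4, where 41 of the 253 calls were kept, and 36 calls (34 higher, 2 lower) held without each of the 8 libraries in turn. With the library number as a replicate block, 175 of the 253 calls were kept. By annotation, 198 of the genes called higher and all 46 called lower were protein coding.

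**Figure D1:**
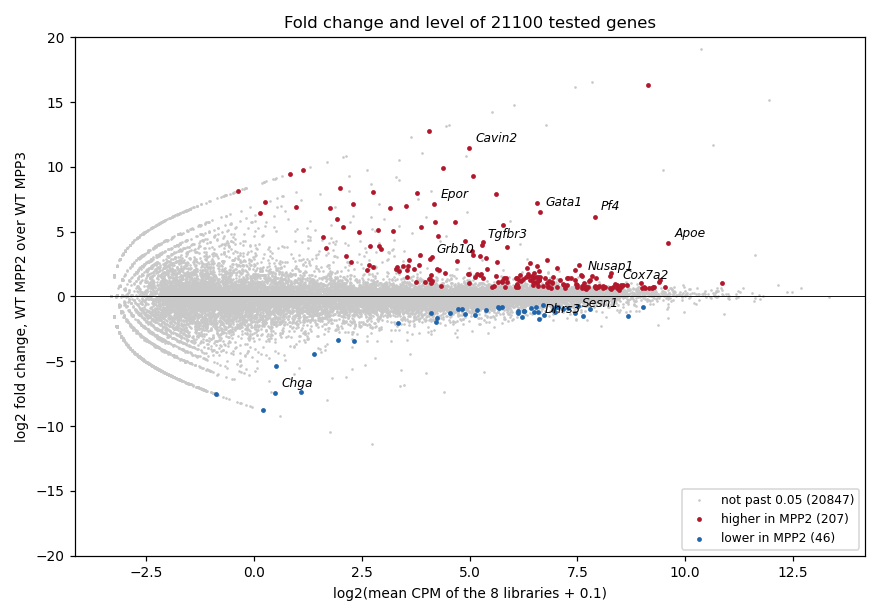
Log2 fold change of WT MPP2 over WT MPP3 (y axis) against the log2 of the mean CPM of the 8 libraries plus 0.1 (x axis), 1 point for each of 21100 tested genes. The 207 genes called higher in MPP2 (red) reach larger fold changes than most of the 46 called lower (blue), and genes with few counts spread widest.

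Some genes that the sort did not use held their call without each library, and those described next were chosen after their values were seen. Grb10, an adaptor that restrains insulin and growth factor receptor signalling and is imprinted (chr11:11930508-12038683, mm10, minus strand), had 26.1, 17.8, 35.7 and 38.7 CPM in WT MPP2, against 5.58, 4.30, 2.75 and 3.47 CPM in WT MPP3. The log2 fold change was 2.88 ± 0.28 (SE, n = 4 each; edgeR adjusted p = 6.45e-05). Tgfbr3, the TGF-beta co-receptor betaglycan (chr5:107106570-107289629), had 57.4, 38.2, 77.2 and 119 CPM in WT MPP2, against 3.83, 4.65, 4.47 and 5.25 CPM in WT MPP3. Its log2 fold change was 4.00 ± 0.45 (SE; edgeR adjusted p = 0.000401). Every MPP2 library was above every MPP3 library in both genes. These 2 were also the only genes called within the libraries numbered 1 and 2 alone (0.00948% of those tested), where edgeR gave 1234 genes an unadjusted p under 0.05.

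Apoe, the lipid carrier apolipoprotein E, was among the most abundant of the genes called higher. It had 820.5, 352, 1876 and 2863 CPM in WT MPP2, against 119, 52.0, 60.4 and 109 CPM in WT MPP3. The log2 fold change was 4.12 ± 0.56 (SE; edgeR adjusted p = 0.00258), and the populations did not overlap. Of the cavins, the coat proteins of caveolae, Cavin1, Cavin2 and Cavin3 were all higher. Cavin1 averaged 33.3 ± 8.64 CPM in WT MPP2 and 9.66 ± 2.22 CPM in WT MPP3 (SD, n = 4 each), with a log2 fold change of 1.79 ± 0.28 (SE; edgeR adjusted p = 0.0068). Cavin3 averaged 21.1 ± 2.63 CPM in WT MPP2 and 4.74 ± 1.28 CPM in WT MPP3 (SD, n = 4 each), with a log2 fold change of 2.15 ± 0.31 (SE; edgeR adjusted p = 0.00584). The 2 WT LT-HSC libraries had 74.6 and 87.9 CPM of Cavin1 and 57.1 and 69.2 CPM of Cavin3, above every MPP2 library, and 58.5 and 68.4 CPM of Cavin2, within the MPP2 range.

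**Figure D2:**
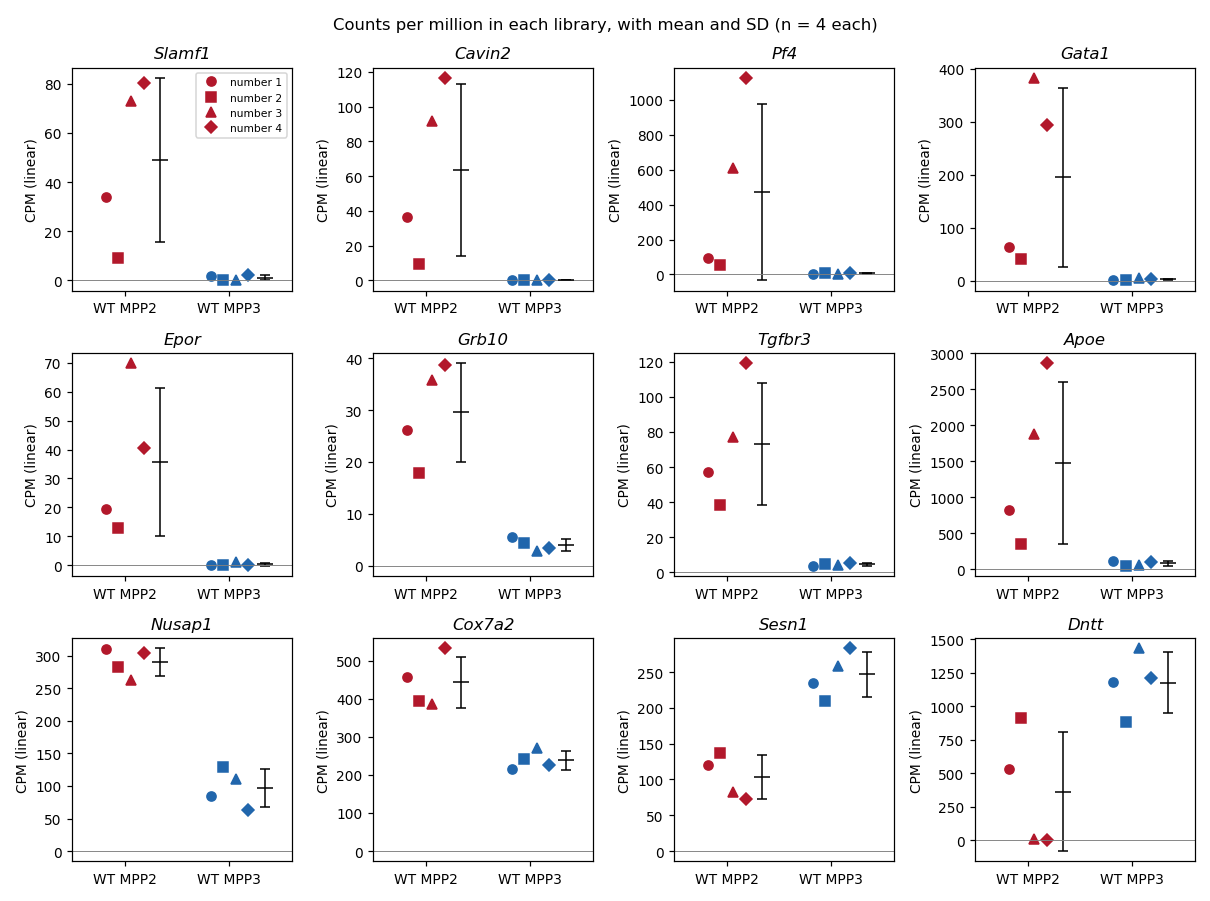
CPM of 12 genes in each WT MPP2 library (red, left) and WT MPP3 library (blue, right), with marker shape for the library number, and the mean and SD of 4 libraries in black. The linear axes show no overlap between the populations in 11 of the genes, while Dntt is near 0 in MPP2 3 and 4 and at 530.5 and 917 CPM in MPP2 1 and 2.

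Platelet genes were higher in MPP2. Of 30 tested members of the list, 12 were called higher and 0 lower, and 28 had a positive fold change. The list's median log2 fold change was 2.27, against -0.02 over all genes. Its members took 0.198%, 0.17%, 0.462% and 0.547% of the counts in WT MPP2 1 to 4, against 0.125% to 0.151% in the 4 WT MPP3 libraries. Without WT MPP2 1 and 2, 16 were called higher (366 of all 21100 genes), and in KO mice 14 (111 of all genes). The genes called were Cavin2, Mfsd2b, Pf4, Treml1, F2rl2, Gp5, Rab27b, Gp9, Itga2b, Itgb3, Cd9 and Ptgs1.

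Cavin2, an abundant platelet protein of caveolae, had 36.3, 9.26, 91.6 and 117 CPM in WT MPP2, against 0, 0.0700, 0 and 0 CPM in WT MPP3. Only 2 counts were found in the 4 WT MPP3 libraries together, and the ratio of the pooled levels was 3529 (95% exact interval 976 to 29145, counting error only; edgeR adjusted p = 0.00222). Pf4, platelet factor 4, had 94.6, 52.1, 612 and 1127 CPM in WT MPP2, against 4.32, 8.60, 3.03 and 10.2 CPM in WT MPP3. Its log2 fold change was 6.17 ± 1.17 (SE; edgeR adjusted p = 0.0177). Mfsd2b, the sphingosine-1-phosphate exporter of platelets and red cells, had 101, 44.6, 279 and 328 CPM in WT MPP2, against 1.87, 2.94, 0.106 and 0.253 CPM in WT MPP3 (log2 fold change 7.18 ± 1.30, SE; edgeR adjusted p = 0.0142). For all 3 genes WT MPP2 3 and 4 were the highest libraries and WT MPP2 2 the lowest of the 4, still above each MPP3 library.

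The receptors of the platelet surface showed the same order of libraries. F2rl2, the thrombin receptor PAR3, had 26.4, 7.96, 65.1 and 127 CPM in WT MPP2, against 1.39, 3.88, 1.76 and 4.45 CPM in WT MPP3 (log2 fold change 4.30 ± 0.76, SE; edgeR adjusted p = 0.011). Itga2b, the integrin alpha chain CD41, had 71.7, 62.7, 174 and 272 CPM in WT MPP2, against 21.8, 20.1, 19.4 and 35.5 CPM in WT MPP3 (log2 fold change 2.58 ± 0.54, SE; edgeR adjusted p = 0.0256). Cd9, a tetraspanin, had 157, 121, 342 and 509 CPM in WT MPP2, against 68.9, 65.1, 66.0 and 68.9 CPM in WT MPP3 (log2 fold change 2.07 ± 0.37, SE; edgeR adjusted p = 0.0117). Of these, F2rl2 held without each library, as did Cavin2. Cd9 and Mfsd2b lost the call without WT MPP3 4 alone (adjusted p = 0.0569 and 0.0745), Pf4 without any one of the 4 WT MPP3 libraries (up to 0.076), and Itga2b without any one but WT MPP2 1 and 2 (up to 0.11). Vwf, the von Willebrand factor of platelets and endothelium, did not pass, with 3.91, 1.71, 22.2 and 34.4 CPM in WT MPP2, against 0.937, 3.01, 1.16 and 0.615 CPM in WT MPP3 (edgeR adjusted p = 0.0753).

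Early erythroid genes were also higher in MPP2. Of 28 tested members, 8 were called higher and 0 lower, 26 had a positive fold change, and the median log2 fold change was 4.94. Without WT MPP2 1 and 2, 8 were called higher (366 of all 21100 genes), and in KO mice 4 (111 of all genes). The list took 0.330%, 0.327%, 0.790% and 0.530% of the counts in WT MPP2, against 0.121% to 0.208% in WT MPP3. This share leans on the carbonic anhydrase genes Car2 and Car1, the most abundant members in WT MPP2. Car2 averaged 2504 CPM in WT MPP2 and 1225 CPM in WT MPP3. Car1, which was not called, averaged 1425 CPM in WT MPP2 and 1.64 CPM in WT MPP3. Epor, the erythropoietin receptor, had 19.4, 12.9, 69.9 and 40.6 CPM in WT MPP2, against 0.0408, 0, 0.951 and 0 CPM in WT MPP3 (log2 fold change 7.12 ± 1.67, SE; edgeR adjusted p = 0.0448). Aqp1, the water channel of red cells, had 11.9, 24.7, 50.1 and 57.1 CPM in WT MPP2, against 0.937, 0.350, 1.23 and 0.181 CPM in WT MPP3 (log2 fold change 5.73 ± 0.94, SE; edgeR adjusted p = 0.0071), and held without each library. Rhd, of the Rhesus blood group proteins, had 5.52, 26.5, 61.4 and 14.8 CPM in WT MPP2, against at most 0.181 CPM in WT MPP3 (log2 fold change 8.0 ± 1.72, SE; edgeR adjusted p = 0.0316). The populations did not overlap in these genes.

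The other calls of the erythroid list covered a wide range of levels. Car2, carbonic anhydrase 2, was the most abundant of the 8, with 2369, 1943, 3176 and 2527 CPM in WT MPP2, against 1443, 1605, 791 and 1063 CPM in WT MPP3 (log2 fold change 1.03 ± 0.24, SE; edgeR adjusted p = 0.0382). Tspo2 averaged 41.2 ± 34.9 CPM in WT MPP2 and 0.0393 ± 0.0577 CPM in WT MPP3, and Smim1, which carries the Vel blood group antigen in humans, averaged 17.3 ± 8.11 CPM in WT MPP2 and 0.149 ± 0.274 CPM in WT MPP3 (SD, n = 4 each). Blvrb, biliverdin reductase B, averaged 193 ± 138 CPM in WT MPP2 and 28.1 ± 9.34 CPM in WT MPP3. Hemgn, the nuclear protein hemogen, averaged 81.2 ± 21.7 CPM in WT MPP2 and 30.0 ± 12.0 CPM in WT MPP3. Of these genes and Epor and Rhd, each lost the call without at least 1 library, WT MPP3 1 for each, and their highest adjusted p over the 8 omissions ran from 0.0802 for Hemgn to 0.162 for Smim1. Markers of mature erythroid cells had 0 calls by edgeR among 12 tested members, with 4 higher at an unadjusted p under 0.05, 1 higher by DESeq2 and 0 by limma voom. In 5 of these markers the MPP2 libraries were all above the MPP3 libraries, while 10.2% of all genes did not overlap in either direction. They took 0.0131% to 0.0184% of counts in WT MPP2 and 0.00964% to 0.0125% in WT MPP3.

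Among transcription factors of the 2 lineages, 3 of 20 tested members were called higher and 0 lower, with a median log2 fold change of 0.44. The fold change was positive in 12 members and negative in 8. Gata1 (chrX:7959260-7978071, minus strand) had 63.3, 41.3, 383 and 293 CPM in WT MPP2, against 1.39, 0.0700, 3.87 and 3.04 CPM in WT MPP3. The lowest MPP2 library was thus above the highest MPP3 library, with a log2 fold change of 6.54 ± 1.49 (SE; edgeR adjusted p = 0.0422). The call was lost in 7 of the 8 omissions, all but that of WT MPP2 2, with adjusted p up to 0.146. Trib2, a pseudokinase, had 32.1, 9.51, 69.4 and 68.0 CPM in WT MPP2, against 10.2, 5.18, 8.14 and 3.65 CPM in WT MPP3 (log2 fold change 2.72 ± 0.49, SE; edgeR adjusted p = 0.0122), so that WT MPP2 2 lay within the MPP3 range. Trib2 lost the call without WT MPP3 2 or WT MPP3 4, with adjusted p up to 0.0696.

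Klf1, Gata2 and Gfi1b of the list did not pass although most of their MPP2 libraries were higher. They do not stand for the rest of the list, in which 8 members had a negative fold change. Klf1, the erythroid Krüppel-like factor, had 49.7, 25.6, 227 and 179 CPM in WT MPP2, against 0.693, 0.350, 5.07 and 2.46 CPM in WT MPP3 (edgeR adjusted p = 0.138). Gata2 had 169.5, 124, 346 and 437 CPM in WT MPP2, against 82.7, 65.3, 88.7 and 153 CPM in WT MPP3 (edgeR adjusted p = 0.0788). Gfi1b had 90.0, 46.3, 304 and 262 CPM in WT MPP2, against 39.9, 23.6, 81.7 and 59.1 CPM in WT MPP3 (edgeR adjusted p = 0.212). In Klf1 the populations did not overlap, while in Gata2 and Gfi1b 1 or more MPP2 libraries fell within the MPP3 range.

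The promoters of these genes were searched for the letters that GATA factors bind, AGATAA on either strand. RefSeq promoters (GRCm38.p6, from 250 bases before to 50 after each start) were found for 162 of the 207 genes called higher and 36 of the 46 called lower. A match was present in 7 of 25 promoters of the platelet list (28%) and in 9 of 30 of the early erythroid list (30%), against 11.2% of all 32851 promoters and 7.37% of those of the genes tested. Of the promoters of genes called higher, 10.1% held one. The 200 bases before the RefSeq start are shown for 3 called genes with a match among those named above, with the match in capitals; the last base of each line is the base before the start, and Epor has the reverse complement TTATCT. A match is a description of these letters and not of a bound site.
F2rl2 (chr13:95696720-95696919, plus strand): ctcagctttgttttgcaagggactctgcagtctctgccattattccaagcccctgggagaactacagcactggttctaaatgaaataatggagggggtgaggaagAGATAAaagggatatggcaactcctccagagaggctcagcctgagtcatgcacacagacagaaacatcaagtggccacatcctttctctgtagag
Rhd (chr4:134864336-134864535, plus strand): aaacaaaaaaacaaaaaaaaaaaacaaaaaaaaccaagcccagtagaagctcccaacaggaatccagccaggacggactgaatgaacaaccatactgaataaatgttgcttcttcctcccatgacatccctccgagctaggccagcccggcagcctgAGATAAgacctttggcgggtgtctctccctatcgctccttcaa
Epor (chr9:21963577-21963776, minus strand): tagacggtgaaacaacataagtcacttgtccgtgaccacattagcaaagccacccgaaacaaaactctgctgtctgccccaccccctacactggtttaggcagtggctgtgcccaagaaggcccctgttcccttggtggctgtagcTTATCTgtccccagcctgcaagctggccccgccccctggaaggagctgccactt

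Of the 15 genes with the largest fold change among the calls higher in MPP2, 3 were platelet genes and 5 early erythroid genes, and Gata1 and Slamf1 are described above. Slc38a5, an amino acid transporter, had 7.38, 20.1, 93.3 and 11 CPM in WT MPP2 and no count in any WT MPP3 library. Its pooled level was at least 1328-fold higher in MPP2, against a floor of 3 counts over the 4 WT MPP3 libraries. Ces2g, a carboxylesterase, averaged 67.1 ± 47.0 CPM in WT MPP2 and 0.112 ± 0.224 CPM in WT MPP3. Nxpe2 averaged 13.4 ± 10.9 CPM in WT MPP2 and 0.0481 ± 0.0595 CPM in WT MPP3 (SD, n = 4 each). Epdr1 had 45.2, 23.4, 196 and 164 CPM in WT MPP2, against 2.53, 0.979, 5.07 and 0.868 CPM in WT MPP3 (log2 fold change 5.50 ± 0.96, SE; edgeR adjusted p = 0.0107). Pdzph1 had 2.58, 3.88, 31.3 and 52.6 CPM in WT MPP2, against at most 0.669 CPM in WT MPP3 and at most 0.0340 CPM in WT LT-HSC. Slc38a5 lost the call without any one WT MPP3 library, Ces2g, Nxpe2 and Pdzph1 without several libraries of both populations, and Epdr1 without WT MPP3 4 alone, with highest adjusted p from 0.0575 (Epdr1) to 0.161 (Ces2g).

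Mitosis genes were higher in MPP2. Of 35 tested members, 13 were called higher and 0 lower, and all 35 had a positive fold change. In 29 the 4 MPP2 libraries were above the 4 MPP3 libraries, while 10.2% of all genes did not overlap in either direction. The list's median log2 fold change was 1.30, and its members took 0.549% to 0.684% of counts in WT MPP2 and 0.201% to 0.355% in WT MPP3, without overlap. Nusap1, which binds spindle microtubules, had 311, 283, 263 and 304 CPM in WT MPP2, against 84.8, 129, 110.5 and 63.3 CPM in WT MPP3 (log2 fold change 1.58 ± 0.27, SE; edgeR adjusted p = 0.00956), and held without each library. Birc5 (survivin), a subunit of the chromosomal passenger complex, had 233, 276, 253 and 399 CPM in WT MPP2, against 71.6, 102, 126 and 72.1 CPM in WT MPP3 (log2 fold change 1.64 ± 0.29, SE; edgeR adjusted p = 0.0114). Cdk1, the kinase that drives entry into mitosis, had 323, 377, 321 and 403 CPM in WT MPP2, against 104, 151, 190.1 and 90.1 CPM in WT MPP3 (edgeR adjusted p = 0.0365). Ccnb2, its partner cyclin B2, had 305, 323, 388 and 353 CPM in WT MPP2, against 63.7, 152, 154 and 92.9 CPM in WT MPP3 (edgeR adjusted p = 0.0309). Without WT MPP2 1 and 2, 11 members were called higher (366 of all 21100 genes). The list had nearly the same median within numbers 1 and 2 (1.36) and within numbers 3 and 4 (1.28). Birc5, Cdk1 and Ccnb2 lost the call without WT MPP3 4, and Cdk1 and Ccnb2 also without others, with highest adjusted p of 0.0685, 0.151 and 0.126.

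Mitosis genes are known to carry a cell cycle homology region (CHR, TTTGAA) near their start, often with CCAAT boxes. The CHR holds the gene silent outside the late cell cycle, and CCAAT boxes bind the activator NF-Y. On either strand, TTTGAA was in 24 of 33 promoters of the mitosis list (72.7%), against 17.9% of all 32851 promoters, and CCAAT was in 26 of them (78.8%), against 37.4% of all. Among the 13 promoters of the mitosis genes called higher, 8 (61.5%) held TTTGAA. The list was chosen for its function, so this is a property of its members and not of the difference between MPP2 and MPP3. The 200 bases before the start are shown for Ccnb2 and Cdk1, with the letters of both motifs, or their reverse complements TTCAAA and ATTGG, in capitals. In Ccnb2 the TTTGAA begins 167 bases before the start, upstream of its 3 CCAAT matches. In Cdk1 TTTGAA begins 71 and 15 bases before the start. A match is a description of these letters, and none is shown to be a working CHR.
Ccnb2 (chr9:70421555-70421754, minus strand): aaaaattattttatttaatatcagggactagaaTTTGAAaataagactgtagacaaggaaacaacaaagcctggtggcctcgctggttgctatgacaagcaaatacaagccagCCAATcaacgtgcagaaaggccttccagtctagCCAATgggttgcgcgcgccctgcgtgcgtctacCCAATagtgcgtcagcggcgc
Cdk1 (chr10:69352913-69353112, minus strand): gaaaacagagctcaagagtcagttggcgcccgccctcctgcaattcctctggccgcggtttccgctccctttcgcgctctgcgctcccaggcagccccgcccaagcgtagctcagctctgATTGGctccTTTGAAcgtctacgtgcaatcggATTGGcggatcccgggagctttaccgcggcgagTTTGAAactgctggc

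The genes of DNA replication moved less than those of mitosis. Of 35 tested members, 0 were called in either direction in edgeR's test, and 30 had a positive and 5 a negative fold change. The median log2 fold change was 0.37. In 10 the MPP2 libraries were all above the MPP3 libraries, while 10.2% of all genes did not overlap in either direction. At an unadjusted p under 0.05 there were 9 higher and 0 lower, and DESeq2 and limma voom called 3 and 4 higher. Mcm2, a subunit of the replicative helicase and 1 of the 5 members with a negative fold change, overlapped between the populations. It had 193, 255, 338 and 240.0 CPM in WT MPP2, against 190.1, 233, 443 and 276 CPM in WT MPP3. Replication-dependent histone genes had 0 calls of 55 tested, with a median of 0.84, 51 positive fold changes and 12 higher at an unadjusted p under 0.05 (3 by DESeq2, 2 by limma voom). How reads shared between near-identical histone genes were counted is not given in the sources used here, so single histone values are uncertain. CDK inhibitors and D cyclins had 0 calls by edgeR of 13 tested, a median of 0.20 and 2 higher at an unadjusted p under 0.05, with 1 higher by DESeq2 and 0 by limma voom.

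Genes of oxidative phosphorylation, the respiratory chain and ATP synthase, were higher in MPP2 by small factors. Of 45 tested nuclear members, 14 were called higher and 0 lower, all 45 had a positive fold change, and the median log2 fold change was 0.56. Cox7a2, a subunit of cytochrome c oxidase, had 458, 394, 386 and 532 CPM in WT MPP2, against 216, 241, 271 and 225 CPM in WT MPP3 (log2 fold change 0.89 ± 0.14, SE; edgeR adjusted p = 0.0071). Of the complex I subunits, Ndufb3 averaged 251 ± 31.9 CPM in WT MPP2 and 154 ± 8.99 CPM in WT MPP3, and Ndufa5 averaged 232 ± 53.2 CPM in WT MPP2 and 129 ± 7.93 CPM in WT MPP3 (SD, n = 4 each; edgeR adjusted p = 0.0071 and 0.00915). These 3 calls held without each library. Without WT MPP2 1 and 2, 19 members were called higher (366 of all 21100 genes). The list took 1.77%, 1.80%, 2.31% and 2.38% of counts in WT MPP2, against 1.53%, 1.59%, 1.87% and 1.63% in WT MPP3, so that WT MPP2 1 and 2 lay within the MPP3 range of this summed share. By edgeR, mitochondrially encoded genes had 0 calls of 9 tested, with 1 higher at an unadjusted p under 0.05 and 0 by DESeq2 and limma voom. Their median was 0.41, and 0.13 within numbers 3 and 4. It was -0.26 without WT MPP2 1 and 2, a set that leaves numbers 1 and 2 only in WT MPP3. All mitochondrial genes took 5.96%, 4.69%, 2.11% and 3.02% of counts in WT MPP2. They took 4.93%, 4.40%, 2.35% and 2.75% in WT MPP3, so that numbers 3 and 4 were lower in both populations. Glycolysis genes had 0 of 25 by edgeR (median -0.26), with 2 higher and 5 lower at an unadjusted p under 0.05, 1 lower by DESeq2 and 0 by limma voom. The edgeR calls were, of ribosome biogenesis genes, 1 of 40, Nop10 (median 0.20), and of ribosomal protein genes 1 of 81, Rps27l (median 0.17).

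Transcript length moved with the fold change, and its part in these results was not tested. The genes called higher had a median exon length of 2735 bases and those called lower one of 5366.5 bases, against 3173 bases over all genes tested. Among genes with at least 10 CPM, split into 4 equal groups by exon length, the shortest group had a median log2 fold change of 0.21 and the longest one of -0.10. The genes of oxidative phosphorylation, with a median of 0.56, are short, and they were not compared with genes of matched length.

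Of 38 tested stem cell identity genes, 4 were called higher and 0 lower, and 21 had a positive and 16 a negative fold change. The median was 0.15, with 0.14 within numbers 1 and 2 and 0 within numbers 3 and 4. It was -0.20 without WT MPP2 1 and 2, a set that leaves numbers 1 and 2 only in WT MPP3. At an unadjusted p under 0.05, 7 were higher and 3 lower, and DESeq2 and limma voom each called 6 higher and 0 lower. Tek, the angiopoietin receptor Tie2, had 24.9, 19.4, 32.3 and 17.5 CPM in WT MPP2, against 5.01, 5.28, 3.21 and 4.34 CPM in WT MPP3 (log2 fold change 2.40 ± 0.40, SE; edgeR adjusted p = 0.00736), and held without each library. Nupr1, a stress-induced nuclear protein, had 9.71, 5.22, 25.3 and 31.7 CPM in WT MPP2, against 1.02, 1.08, 0 and 0.0362 CPM in WT MPP3 (log2 fold change 5.07 ± 0.95, SE; edgeR adjusted p = 0.0142). Esam, an endothelial adhesion molecule that also marks stem cells, averaged 47.7 ± 16.6 CPM in WT MPP2 and 14.6 ± 7.05 CPM in WT MPP3, and Pdzk1ip1 averaged 142 ± 80.3 CPM in WT MPP2 and 50.3 ± 17.5 CPM in WT MPP3 (SD, n = 4 each; edgeR adjusted p = 0.0256 and 0.0344). Nupr1 lost the call without WT MPP3 4 alone (adjusted p = 0.0597), and Esam and Pdzk1ip1 without several libraries (up to 0.11 and 0.17). All 4 were higher still in the 2 WT LT-HSC libraries, at 49.9 and 36.5 CPM for Tek, 50.1 and 36.9 CPM for Nupr1, 164 and 141 CPM for Esam and 339.9 and 417 CPM for Pdzk1ip1. Procr (EPCR), which marks LT-HSC, was not higher in MPP2, with 13, 13.4, 2.69 and 0.336 CPM in WT MPP2, 22.1, 30.0, 3.70 and 17 CPM in WT MPP3, and 85.1 and 98.2 CPM in WT LT-HSC.

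Over the 207 genes called higher, the WT LT-HSC mean lay above both MPP populations in 36, between them in 101 and below both in 70. Over the 46 called lower, it lay above both in 7, between them in 28 and below both in 11. With 2 WT LT-HSC libraries, these positions are descriptions of means.

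Of the 46 genes lower in MPP2, 38 had at least 10 CPM in WT MPP3 and no overlap, and in the 15 of these with the largest change the WT MPP3 mean was 2.33 to 4.22 times the WT MPP2 mean. Dhrs3, a retinal reductase of retinoid metabolism, had 46.0, 77.7, 32.9 and 23.0 CPM in WT MPP2, against 111, 174, 143 and 167 CPM in WT MPP3 (log2 fold change -1.73 ± 0.40, SE; edgeR adjusted p = 0.0406). Il12a, the p35 subunit of interleukin-12, had 119.9, 161, 71.5 and 58.4 CPM in WT MPP2, against 257, 281, 355 and 274 CPM in WT MPP3 (log2 fold change -1.51 ± 0.33, SE; edgeR adjusted p = 0.0303). Adgrg3, the adhesion receptor GPR97 of granulocytes, had 238, 338, 125 and 165 CPM in WT MPP2, against 531, 496, 623 and 748 CPM in WT MPP3 (log2 fold change -1.47 ± 0.31, SE; edgeR adjusted p = 0.0256). No MPP2 library reached the lowest MPP3 library in any of the 3.

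Sesn1, a p53 target that restrains mTORC1, had 120.4, 137, 82.0 and 72.4 CPM in WT MPP2, against 235, 209, 259 and 283 CPM in WT MPP3 (log2 fold change -1.26 ± 0.24, SE; edgeR adjusted p = 0.0142). Xpc, the damage sensor of nucleotide excision repair, had 59.8, 102, 41.1 and 27.9 CPM in WT MPP2, against 129.7, 133, 154 and 194 CPM in WT MPP3 (log2 fold change -1.40 ± 0.29, SE; edgeR adjusted p = 0.0259). Fbxo32, a ubiquitin ligase subunit, averaged 9.24 ± 2.95 CPM in WT MPP2 and 28.5 ± 4.04 CPM in WT MPP3, and Aim2, a sensor of cytosolic DNA, averaged 13.6 ± 4.84 CPM in WT MPP2 and 32.5 ± 2.08 CPM in WT MPP3 (SD, n = 4 each). Ip6k1, an inositol hexakisphosphate kinase, had 50.3, 55.1, 46.9 and 41.2 CPM in WT MPP2, against 92.0, 93.0, 102 and 129 CPM in WT MPP3 (log2 fold change -1.10 ± 0.17, SE; edgeR adjusted p = 0.0068). Ip6k1 and Chga, a secretory granule protein with 1 count in the 4 WT MPP2 libraries and 284 in the 4 WT MPP3 libraries, were the 2 lower calls that held without each library.

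The other lower genes of the 15 were Tmem243, Msrb3, Sh2d5, Rgl1, Itgb7, Pecam1, Slc25a27 and Anxa6, with log2 fold changes of -2.08 for Tmem243 to -1.22 for Anxa6. Msrb3, a methionine sulfoxide reductase, had 6.33, 15.7, 3.81 and 4.87 CPM in WT MPP2, against 23.1, 39.8, 21.6 and 33.6 CPM in WT MPP3 (log2 fold change -1.94 ± 0.43, SE; edgeR adjusted p = 0.0325). Anxa6, a membrane-binding annexin, had 57.4, 71.5, 55.1 and 33.7 CPM in WT MPP2, against 121, 108, 119.7 and 158 CPM in WT MPP3 (edgeR adjusted p = 0.0448). Each MPP2 library was below each MPP3 library in both genes. All 15 genes lost the call without WT MPP3 4, most also without others, and their highest adjusted p over the 8 omissions ran from 0.0702 (Sesn1) to 0.174 (Slc25a27).

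Adhesion genes split, with 2 of 32 called higher (Esam and Itgb3) and 2 lower (Itgb7 and Pecam1) and a median of -0.10. Pecam1, the platelet and endothelial adhesion molecule CD31, had 42.1, 55.6, 37.3 and 26.4 CPM in WT MPP2, against 96.4, 84.2, 100.4 and 116 CPM in WT MPP3 (log2 fold change -1.30 ± 0.25, SE; edgeR adjusted p = 0.015). Itgb7, the integrin chain that homes lymphoid cells to the gut, averaged 16.5 ± 3.91 CPM in WT MPP2 and 42.8 ± 8.48 CPM in WT MPP3 (SD, n = 4 each). Of 20 Hox and Meis genes tested, Hoxa7 was called lower in MPP2. Hoxa7 had 18.4, 31.3, 15.1 and 28.2 CPM in WT MPP2, against 45.2, 41.6, 46.4 and 61.9 CPM in WT MPP3 (log2 fold change -1.07 ± 0.26, SE; edgeR adjusted p = 0.0451). Its call was lost without each library but WT MPP2 2, with adjusted p up to 0.178. Cytokine receptors had 1 call of 40 by edgeR, Epor, with 30 negative fold changes, a median of -0.57, and 3 higher and 12 lower at an unadjusted p under 0.05. DESeq2 called 3 higher and 1 lower, and limma voom 2 higher and 3 lower.

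**Figure D3:**
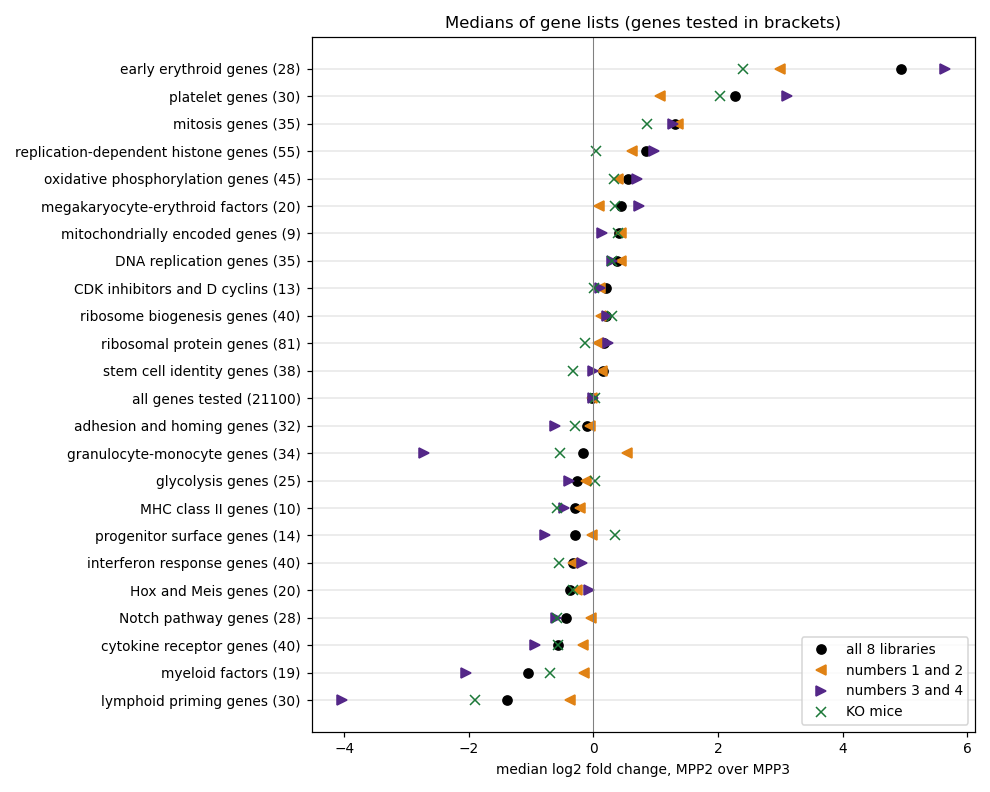
Median log2 fold change of MPP2 over MPP3 (x axis) for each gene list (y axis, tested members in brackets) over all 8 WT libraries (circles), within libraries numbered 1 and 2 (left triangles), within those numbered 3 and 4 (right triangles) and in KO mice (crosses). Early erythroid (4.94) and platelet genes (2.27) lie furthest right, and the lymphoid list lies at -0.38 within numbers 1 and 2 and at -4.04 within numbers 3 and 4.

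Lymphoid priming genes had 0 calls of 30 in either direction by edgeR over all 8 libraries, with a median log2 fold change of -1.39, and their values differed between the MPP2 libraries. At an unadjusted p under 0.05, 0 were higher and 8 lower. DESeq2 and limma voom each called 6 lower, against 346 and 265 of all 21100 genes. In 10 members the MPP2 libraries were all below the MPP3 libraries, while 10.2% of all genes did not overlap in either direction. Without WT MPP2 1 and 2, 9 were called lower, against 389 of all 21100 genes. In KO mice 3 were called lower, against 76 of all genes, and the list's median was -1.90. Dntt, the terminal transferase of lymphoid progenitors, had 530.5, 917, 11.9 and 0 CPM in WT MPP2, against 1181, 885, 1434 and 1213 CPM in WT MPP3. Flt3, the receptor tyrosine kinase of lymphoid-primed progenitors, had 301, 591, 40.9 and 6.96 CPM in WT MPP2, against 923, 1161, 1017 and 1262 CPM in WT MPP3 (log2 fold change -2.22 ± 1.10, SE; edgeR adjusted p = 0.393). Satb1, a chromatin organiser, had 124, 154, 12.8 and 19.5 CPM in WT MPP2, against 267, 257, 203 and 369 CPM in WT MPP3 (edgeR adjusted p = 0.212). WT MPP2 3 and 4 were far below every MPP3 library in Dntt, Flt3 and Satb1, while WT MPP2 1 and 2 were nearer to them. Il7r, the interleukin-7 receptor, had 34.5, 41.2, 0 and 0 CPM in WT MPP2, against 25.2, 9.34, 56.9 and 25.1 CPM in WT MPP3. Mn1 and Tcf7 were below the MPP3 range in each MPP2 library, Mn1 with 16.1, 36.7, 6.4 and 3.36 CPM against 81.7, 83.2, 64.4 and 85.9 CPM, and Tcf7 with at most 0.735 CPM against 4.34 to 35.4 CPM, and neither passed (edgeR adjusted p = 0.0583 and 0.0983).

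Granulocyte and monocyte genes had no call by edgeR. Of 34 tested members 0 were called (2 higher and 2 lower at an unadjusted p under 0.05, and 1 lower by each of DESeq2 and limma voom), and the median was -0.16, with 0.54 within numbers 1 and 2 and -2.73 within numbers 3 and 4. Mpo, myeloperoxidase, had 2319, 1134, 390.1 and 21.6 CPM in WT MPP2, against 715, 584, 3294 and 1282 CPM in WT MPP3. Csf3r, the G-CSF receptor, had 66.3, 83.5, 20.6 and 2.27 CPM in WT MPP2, against 83.2, 122, 127 and 142 CPM in WT MPP3 (edgeR adjusted p = 0.337). Mpo was thus higher in MPP2 among libraries 1 and 2 and lower in MPP2 among libraries 3 and 4. Spi1 (PU.1) was lower in each MPP2 library without passing, with 137, 132, 81.2 and 92.4 CPM in WT MPP2, against 182, 215, 272 and 247 CPM in WT MPP3 (log2 fold change -1.05 ± 0.32, SE; edgeR adjusted p = 0.12). Among myeloid factors 0 of 19 were called by edgeR, against 3 lower by DESeq2 and 2 lower by limma voom, 17 had a negative fold change, 1 was higher and 4 lower at an unadjusted p under 0.05, and the median was -1.05. MHC class II genes (0 of 10), interferon response genes (0 of 40) and Notch pathway genes (0 of 28) had no call by edgeR, with 2, 11 and 6 lower at an unadjusted p under 0.05. DESeq2 called 2, 3 and 1 of them lower and limma voom 2, 1 and 2. Over all 21100 genes, 2858 had an unadjusted p under 0.05 by edgeR in either direction.

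More genes were called within the libraries numbered 3 and 4. There, 918 genes (4.35%) were called, 350 higher and 568 lower in MPP2, against the 2 called within numbers 1 and 2. Within numbers 3 and 4, 16 of the 30 lymphoid genes, 8 of the 34 granulocyte-monocyte genes, 13 of the 40 cytokine receptors and 3 of the 19 myeloid factors were called lower, and 17 of the 30 platelet genes and 10 of the 28 early erythroid genes higher. Of the 350 genes called higher there, 330 had a positive fold change within numbers 1 and 2 too, and of the 568 called lower, 504 had a negative one. Since these genes were chosen by their values within numbers 3 and 4, the size of their change within numbers 1 and 2 is not set against it. Over all genes, the sign was the same in 12736 of 21100. With 2 libraries on each side, the spread is taken from all groups of the fit, and what the library numbers stand for is not given in the sources used here.

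**Figure D4:**
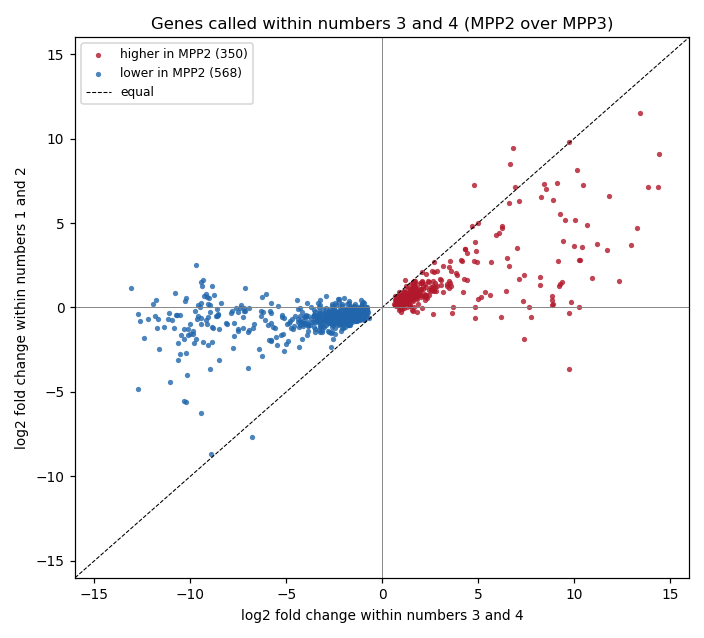
Log2 fold change of WT MPP2 over WT MPP3 within libraries numbered 1 and 2 (y axis) against that within libraries numbered 3 and 4 (x axis), for the 918 genes called within numbers 3 and 4. Of the 350 genes called higher (red) 330 are positive on the y axis and of the 568 called lower (blue) 504 are negative; the genes were chosen on the x axis, so smaller values on the y axis follow in part from that choice.

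Tested directly, the contrast differed between numbers 1 and 2 and numbers 3 and 4 in 13 genes (0.0616%), among them Rcsd1, Cd34, Nckap1, Fcrl1, Man1c1, Herc3, C1ra, Syne2, Laptm4b, Clcf1, Mpeg1 and Myof. Cd34, a sialomucin of progenitors, had 832, 1135, 270.5 and 174 CPM in WT MPP2, against 1331, 1443, 1377 and 1482 CPM in WT MPP3. Its log2 fold change was -0.50 within numbers 1 and 2 and -2.68 within numbers 3 and 4 (edgeR adjusted p of the difference = 0.0444). Rcsd1, a regulator of actin capping, had 87.2, 102, 22.7 and 21.4 CPM in WT MPP2, against 146, 126, 163 and 189.6 CPM in WT MPP3 (edgeR adjusted p of the difference = 0.00381). Clcf1, a cytokine of the interleukin-6 family, had 5.92, 14.7, 0 and 0 CPM in WT MPP2, against 13.7, 19, 17.8 and 26.3 CPM in WT MPP3 (edgeR adjusted p of the difference = 0.00123). Nckap1, a subunit of the WAVE complex, went the other way, with 6.45, 8.45, 22.4 and 25.5 CPM in WT MPP2, against 2.16, 4.02, 0.0704 and 0 CPM in WT MPP3 (edgeR adjusted p of the difference = 0.00786). In each of these, the MPP2 libraries numbered 3 and 4 lay further from MPP3 than those numbered 1 and 2.

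The same populations sorted from KO mice gave 187 calls (0.886%), 111 higher and 76 lower in KO MPP2 than in KO MPP3. All 207 genes called higher and all 46 called lower in WT had the same sign there, against 13881 of 21100 over all genes, and 62 of the 207 and 17 of the 46 were also called. The median log2 fold change of the 207 was 1.02 in KO mice against 1.46 in WT mice, and that of the 46 was -1.0 against -1.21. Since these genes were chosen by their values in WT mice, the smaller medians in KO mice follow in part from that choice. Grb10 had 37.3, 28.6, 42.0 and 41.3 CPM in KO MPP2, against 6.69, 9.67, 5.34 and 5.79 CPM in KO MPP3, and Tgfbr3 had 62.0, 60.9, 73.1 and 101 CPM in KO MPP2, against 7.51, 12.1, 3.88 and 1.96 CPM in KO MPP3. Both were called there (edgeR adjusted p = 0.000646 and 0.00119). Mitosis and oxidative phosphorylation genes had 0 calls among 35 and 45 in KO mice, with medians of 0.86 and 0.34 and with 27 and 12 higher at an unadjusted p under 0.05. Of all 21100 genes, 3061 reached that level by edgeR in KO mice in either direction. Nusap1 had 252, 331, 228 and 197 CPM in KO MPP2, against 154, 81.6, 249 and 121 CPM in KO MPP3, which overlapped. The difference of the contrast between genotypes was called in 0 genes (0%) by edgeR, with 943 at an unadjusted p under 0.05. Of the KO libraries, immunoglobulin genes took 45.8% of counts in KO MPP2 1 and 25.8% in KO MPP3 1, and ribosomal RNA genes 21.2% in KO MPP3 2; without these 3 libraries in the fit, the WT comparison gave 487 higher and 159 lower calls.

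**Figure D5:**
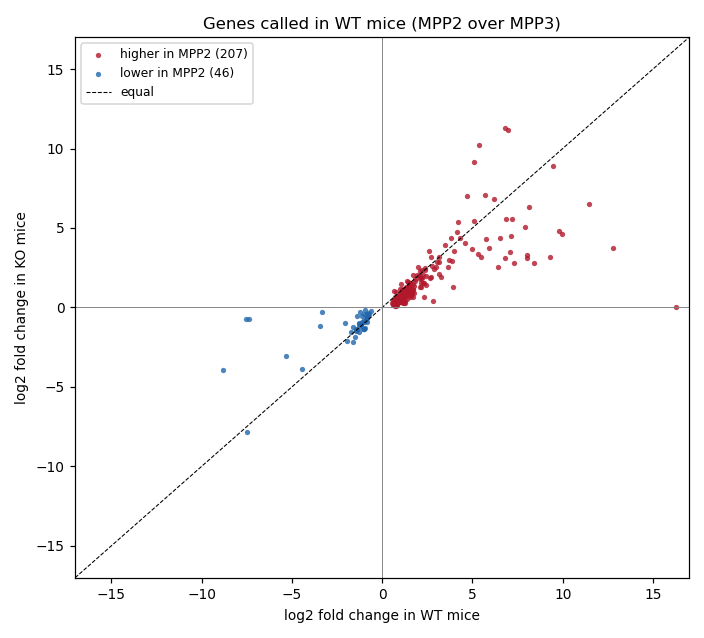
Log2 fold change of MPP2 over MPP3 in KO mice (y axis) against WT mice (x axis) for the 253 genes called in WT mice, 207 higher (red) and 46 lower (blue), with equal values on the dashed line. Each gene has the same sign in both genotypes, with Igkv5-39 at 16.30 in WT and 0.02 in KO. The genes were chosen on the x axis, so smaller values on the y axis follow in part from that choice.

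Markers of other cells were counted in both populations. Neutrophil markers took 0.00208% to 0.0398% of counts in WT MPP2 and 0.0138% to 0.218% in WT MPP3, with the highest value in WT MPP3 1, and Chil3 was at 0 in all 4 WT MPP2 libraries. Mast cell and basophil markers took 0.0274% to 0.0432% in WT MPP2 and 0.0105% to 0.0418% in WT MPP3. Of 12 tested, 8 had a positive and 4 a negative fold change, and the 1 call, Slc18a2, was higher in MPP2. Tpsab1 was at 0 in all 4 WT MPP2 libraries and averaged only 0.36 CPM in WT MPP3. B cell markers took 0.00513% to 0.0107% in WT MPP2 and 0.00944% to 0.0115% in WT MPP3, T and NK cell markers at most 0.00146% in WT MPP2 and 0.00601% in WT MPP3, and macrophage markers at most 0.00865% in WT MPP2 and 0.00629% in WT MPP3. Eosinophil markers took at most 0.00678% in WT MPP2 and 0.00252% in WT MPP3, and dendritic cell markers, which include Flt3, 0.0220% to 0.109% in WT MPP2 and 0.159% to 0.195% in WT MPP3. The markers of stroma and endothelium took 0.0131% to 0.0147% in WT MPP2 and 0.0176% to 0.0232% in WT MPP3, with Tek called higher and Pecam1 lower in MPP2, both of which blood progenitors also express. Their part in the results was not tested.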

How the data were processed

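RNA from sorted mouse bone marrow cells was sequenced after Nextera XT library preparation, per the labels' protocols. The deposited table holds raw read counts of 54446 gene IDs in 21 libraries, made by the authors with STAR and the mm10 build, per the submitters' processing notes; no source used here gives the counting tool, its strand setting or its annotation. All 54446 rows name a gene ID. Symbols and positions came from a mouse annotation of the same build, which matched 54409 IDs.

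Counts of all 21 libraries in 6 groups entered 1 fit with edgeR 4.0.16 (R 4.3.3): filterByExpr with a minimum count of 10 left 21100 genes, TMM scaled the libraries, and the robust quasi-likelihood test gave p-values, adjusted by Benjamini-Hochberg over all tested genes, with 0.05 as the threshold. The SE is the log2 fold change divided by the square root of F. DESeq2 1.42.0 and limma 3.58.1 (voom) were alternatives. The script was tested on simulated counts. Intervals and floors cover counting error only: the libraries have no stated molecular identifiers, so PCR copies of a molecule count as separate reads. No 2 libraries held identical counts.

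The members and gene lists were chosen with earlier results of these data known. Genes named from the comparison were the 15 higher and 15 lower with the largest change among calls with at least 10 CPM in the higher population and no overlap, up to 5 per list by p, and the sort genes. Genes outside this rule, such as Grb10, Tgfbr3, Apoe, the cavins other than Cavin2, Ip6k1, Chga, Gp5, Vwf, Gfi1b, Klf1, Cdk1, Ccnb2, Mcm2, Dntt, Car2, Satb1, Il7r, Mpo, Csf3r, Procr, Ighm, Jchain and Ddx3y, were chosen after their values were seen. Promoters came from RefSeq (GRCm38.p6), read with Python 3.11.15. Results for some genes are not reported here.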

Additional observations from a re-analysis of the deposited data

Results flagged for a closer look

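In 11 of the 165 groups of 4 library values tested (6.67%), 1 library lay far from the other 3 of its group by Dixon's criterion, which chance meets in about 1 in 20. Among the WT MPP2 libraries these were Slc38a5 at 93.3 CPM in WT MPP2 3, Itgb7 at 22.3 CPM in WT MPP2 2, Tcf7 at 0.735 CPM in WT MPP2 2 and Chga at 0.0403 CPM in WT MPP2 1. Among the WT MPP3 libraries these were Itga2b at 35.5 CPM in WT MPP3 4, Pdzk1ip1 at 24.3 CPM, Epor at 0.951 CPM and Pdzph1 at 0.669 CPM in WT MPP3 3, Smim1 at 0.560 CPM and Cavin2 at 0.0700 CPM in WT MPP3 2, and Ces2g at 0.448 CPM in WT MPP3 1. Several of these values are 1 to a few counts beside libraries at 0.

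The population difference differed between the libraries numbered 1 and 2 and those numbered 3 and 4 in 4 genes with values given here, by the edgeR test of the difference itself. The log2 fold change within numbers 1 and 2 minus that within numbers 3 and 4 was 2.48 for Rcsd1 (-0.52 and -3.00; adjusted p = 0.00381), 2.19 for Cd34 (-0.50 and -2.68; adjusted p = 0.0444) and 11.51 for Clcf1 (-0.67 and -12.18; adjusted p = 0.00123). It was -7.95 for Nckap1 (1.27 and 9.21; adjusted p = 0.00786). For Clcf1 and Nckap1 the value rests on libraries at or near 0 and is no measure of size. The number of libraries is 2 on each side of each difference, and the part of the immunoglobulin-rich libraries WT MPP2 1 and 2 in it was not tested.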

How the results depend on the processing

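The 74 genes given with a test kept their direction under the alternatives run, with 1187 values on the same side of the threshold, 386 that lost the call and 55 that gained one; the cause was not tested. Of the genes given by level alone, Mpo, Il7r, Cd48 and Mcm2 turned from negative overall to positive within numbers 1 and 2, and Phf6, Kit, Ighm and Jchain from positive overall to negative within numbers 3 and 4. Against 207 higher and 46 lower calls, DESeq2 gave 568 and 346, limma voom 408 and 265, no filter on low counts 132 and 26 (42571 genes tested), a minimum count of 50 gave 266 and 70 (15213 tested), a fit of only the 8 libraries 86 and 21, a term for the number range (1 and 2 against 3 and 4) 384 and 193, DESeq2 size factors 205 and 46, the libraries numbered 1 and 2 alone 2 and 0, and those numbered 3 and 4 alone 350 and 568. Leaving out 1 library gave 39 to 296 higher and 2 to 162 lower calls, lowest without WT MPP3 4 and highest without WT MPP2 2. Alternatives chosen after seeing the data gave 366 and 389 without WT MPP2 1 and 2 (where the median of all genes was -0.16), 205 and 47 without immunoglobulin genes, and 487 and 159 without KO MPP2 1, KO MPP3 1 and KO MPP3 2. The difference by number range was called in 13 genes, in 518 with no filter and in 34 with a minimum count of 50. The difference by genotype was called in 0 genes in each alternative run.

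The labels do not say that equal replicate numbers pair the libraries. Deviations of same-numbered MPP2 and MPP3 libraries correlated at 0.105, 0.136, 0.10 and 0.0654, not all over 0.1, while each of the 8 libraries correlated best with its own number, a hint from the data and not from the design. With the number as a replicate block, 196 genes were called higher and 74 lower, and 175 of the 253 calls were kept. Early erythroid calls then numbered 5 in place of 8 and mitosis calls 9 in place of 13, and 2 lymphoid, 1 MHC class II and 2 interferon response genes were called lower. In a fit of only the 8 libraries the block gave 39 and 3, of which 18 were among the 253.

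Of the list medians, those of the granulocyte-monocyte genes (-0.16; 0.54 within numbers 1 and 2, also positive without WT MPP2 3, WT MPP2 4 or WT MPP3 3), the MHC class II genes (0.12 without WT MPP3 1), the stem cell identity genes (-0.20) and the mitochondrially encoded genes (-0.26, both without WT MPP2 1 and 2) turned sign, as did those of the neutrophil (1.26 without WT MPP3 1), plasma cell (-0.47 within numbers 3 and 4), B cell (-0.26 within numbers 1 and 2) and eosinophil markers (-1.68 without WT MPP2 2), and of the 4 sort antigens (0.10 within numbers 1 and 2). The omission of WT MPP2 1 and 2 leaves numbers 1 and 2 only in WT MPP3. Within numbers 3 and 4, the medians were 0 for stem cell identity genes and 0.13 for mitochondrially encoded genes. At this depth 3 counts were 0.0985 to 0.126 CPM. Cell number and depth were not varied.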
